A study of Mus musculus with 10 samples.

Results

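The Hox genes are transcription factor genes arranged in 4 clusters, and 36 of the 39 on the list of mouse Hox genes used here could be described in the gastrocnemius, the large calf muscle. They were taken as the probe sets that carry exactly 1 gene symbol of the form Hoxa, Hoxb, Hoxc or Hoxd followed by a number, with the brighter probe set kept for Hoxb5, the 1 gene with more than one. They make up 0.162% of the 22180 genes with a usable probe set on the array. The study asked what long-term L-carnitine feeding does in mice at advanced age. Total RNA from 30 mg of frozen muscle was measured on Affymetrix Mouse Gene 2.0 ST arrays, with 1 array per mouse.

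Both groups were male mice of the outbred NMRI stock, put on their diets after 1 week of acclimatization that began at an age of 3 weeks. The carnitine group (5 arrays) ate a basal diet of natural ingredients with 1000 mg L-carnitine per kg added. The control group (5 arrays) ate the same basal diet, which held less than 5 mg carnitine per kg. The study killed 10 of the 30 mice on each diet at ages of 9, 15 and 18 months. Neither the age of an array mouse nor its cage, which held 5 mice, is in the labels. Age and cage could therefore not be set against diet.

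In vertebrate embryos, Hox genes give cells their position along the head-to-tail axis and along the limb. Genes with the same number in different clusters are paralogs, copies of 1 ancestral gene; low numbers act towards the head and high numbers towards the tail and the limb tip. In adult mammals, fibroblasts and muscle stem cells keep much of the Hox pattern of the site they came from, and Polycomb and Trithorax proteins hold the clusters off or on.

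The values are RMA levels on the log2 scale, so 1 unit is a 2-fold difference, and differences are carnitine minus control. A level is described here by its place above or below 5.80, the median level over all 34390 probe sets. Probe sets differ in how strongly they bind their target, so a place above that median is no proof of a transcript, and the levels of different genes do not rank their transcripts. The muscle label was borne out by 12 of 12 muscle fibre markers above the median, with actin (Acta1) at 13.82, creatine kinase (Ckm) at 13.31 and the fast myosin Myh4 at 13.64. The values of control replicate 5 were spread over the narrowest range, with 2.20 log2 units between its quartiles, where the remaining arrays had 2.39 to 2.59.

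Of the 36 Hox genes, 22 lay above the median probe set level (61.1%), beside 58.3% of all 22180 genes. Only 6 reached the upper quartile of probe sets, at 7.06 (16.7%, beside 31.0% of all genes). All 3 measured genes of paralog group 10, all 4 of group 9 and all 3 of group 4 lay above the median. Neither of the 2 genes of group 2, and neither of the 2 of group 12, did so. By cluster, 7 of 9 HoxA genes and 7 of 9 HoxC genes were above it, against 4 of 10 HoxB genes and 4 of 8 HoxD genes. These clusters lie on chromosomes 6 (HoxA), 15 (HoxC), 11 (HoxB) and 2 (HoxD) in the RefSeq annotation of GRCm38.p6.

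**Figure D1:**
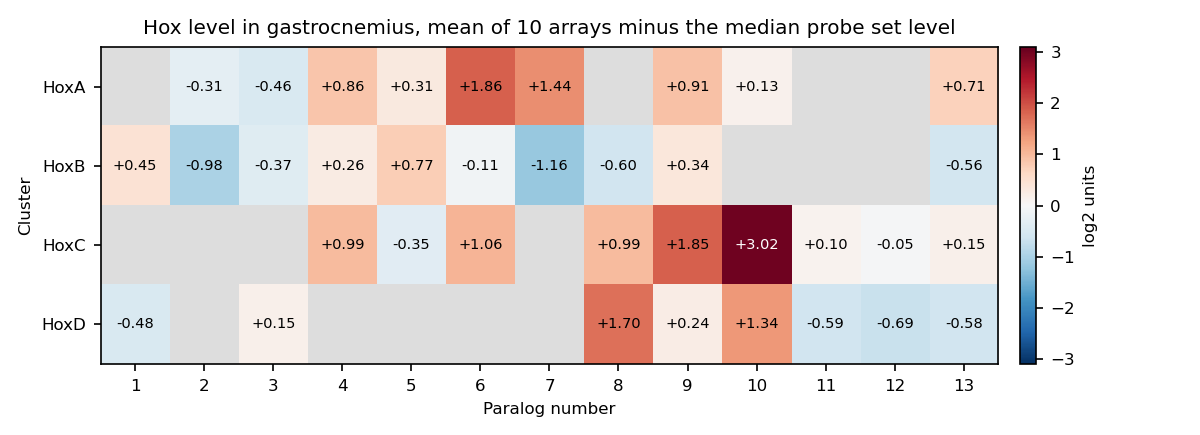
Mean level of each Hox gene over 10 arrays minus the median probe set level, in log2 units, by cluster (rows) and paralog number (columns); red is above the median, blue below, and grey cells hold no gene described here. Paralog groups 9 and 10 are above the median in every cluster that has them, from 0.13 for Hoxa10 to 3.02 for Hoxc10, while Hoxd11, Hoxd12 and Hoxd13 are below it.

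Hoxc10, which acts in the lumbar spinal cord and the hindlimb of the embryo, stood furthest above the median. Its levels were 8.84, 9.08, 8.71, 8.73 and 8.96 in carnitine muscles, against 8.88, 8.93, 9.09, 8.44 and 8.52 in control muscles (replicates 1 to 5). Every mouse was far above its array's median and the groups overlapped; the mean of all 10 arrays, 8.82, exceeded 93.0% of probe sets. Hoxd10, its paralog in the HoxD cluster, had 6.94, 7.14, 6.94, 6.95 and 7.26 in carnitine muscles, against 6.78, 7.28, 7.37, 7.13 and 7.59 in control muscles. The lowest and the highest Hoxd10 value were both in controls. Hoxa10, needed for the uterus and with the other group 10 genes for the lumbar spine, averaged only 5.96 ± 0.12 in carnitine muscles and 5.89 ± 0.11 in control muscles (SD, n = 5 each), and cleared its array's median on 8 of 10 arrays.

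Hoxc9, which marks thoracic levels of the spinal cord, had 7.75, 7.69, 7.64, 7.72 and 7.66 in carnitine muscles, against 7.93, 7.65, 8.0, 7.27 and 7.14 in control muscles. All 5 carnitine values sat inside the control range, with an SD of 0.04 in carnitine and 0.38 in control. Hoxa9, best known from blood stem cells and leukaemia, averaged 6.74 ± 0.17 in carnitine muscles and 6.68 ± 0.18 in control muscles. The other members of the group were nearer the median, Hoxb9 at 6.14 and Hoxd9 at 6.04 over all arrays. Hoxd9 cleared its array's median on 9 of 10 arrays, and Hoxa9, Hoxb9 and Hoxc9 on all 10.

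In the middle of the clusters the paralogs of 1 number parted from each other. Hoxa6, a gene of the neck-to-thorax region, had 7.75, 7.47, 7.66, 7.64 and 7.56 in carnitine muscles, against 7.70, 7.68, 7.69, 7.86 and 7.52 in control muscles. Its paralog Hoxc6 averaged 6.79 ± 0.15 in carnitine muscles and 6.93 ± 0.29 in control muscles, while Hoxb6 lay under the median at 5.61 ± 0.09 in carnitine muscles and 5.77 ± 0.18 in control muscles. Thus 2 of the 3 genes numbered 6 were above the median on all 10 arrays, and Hoxb6 on 2. Hoxa7 averaged 7.27 ± 0.09 in carnitine muscles and 7.22 ± 0.14 in control muscles, and cleared its array's median on all 10 arrays. Hoxb7 averaged 4.59 ± 0.07 in carnitine muscles and 4.68 ± 0.28 in control muscles, and cleared it on none.

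Hoxd8 had 7.39, 7.49, 7.43, 7.60 and 7.55 in carnitine muscles, against 7.19, 7.61, 7.87, 7.39 and 7.42 in control muscles, and so was in the upper quartile of probe sets in both groups. Hoxc8, which sets thoracic vertebrae and the nerve supply of the forelimb, was above the median on all 10 arrays, and Hoxb8, a gene of the blood and microglial lineage whose loss causes excessive grooming, on none. Among genes numbered 4 and 5, Hoxa4 (6.66), Hoxb4 (6.06), Hoxc4 (6.79), Hoxb5 (6.56) and Hoxa5 (6.11) had means above the median, the last of these, a gene of lung and trachea development, on 8 of 10 arrays. Hoxc5 was below it at 5.45.

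Genes at the head end were mostly dim. Hoxa2, which specifies the second pharyngeal arch, had a mean of 5.49, and Hoxa3, needed for thymus and parathyroid, of 5.34. Hoxb2 (4.81), Hoxb3 (5.43) and Hoxd1 (5.32) were also below the median. The exceptions were Hoxb1, a hindbrain gene, at 6.25 on average and above the median on all 10 arrays, and Hoxd3, a gene of the uppermost neck vertebrae, at 5.95 and also above it on all 10. For Hoxa3, a second probe set, shared with 5730446D14Rik, was above the median with a mean of 6.93, and its signal cannot be assigned to either gene.

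At the tail end the HoxD genes of the limb tip were dim and Hoxa13 was not. Hoxd13, which patterns digits, had 4.85, 5.17, 5.65, 5.32 and 5.06 in carnitine muscles, against 5.20, 5.23, 4.99, 5.21 and 5.46 in control muscles. No mouse reached its array's median for Hoxd13, Hoxd12 (mean 5.11) or Hoxd11 (5.21), a gene of the lower limb segment. Hoxa13, the other digit gene, averaged 6.57 ± 0.17 in carnitine muscles and 6.44 ± 0.28 in control muscles, above the median on all 10 arrays. Hoxb13, a gene of the prostate and tail, had a mean of 5.23, while Hoxc13, a hair and nail gene, was at 5.95 and Hoxc11 at 5.90, each above the median on 6 of 10 arrays. The means nearest the median from above were Hoxc11 and Hoxa10 (5.92), and from below Hoxc12 (5.75) and Hoxb6 (5.69). In all, 17 genes cleared the median of the array on all 10 arrays.

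**Figure D2:**
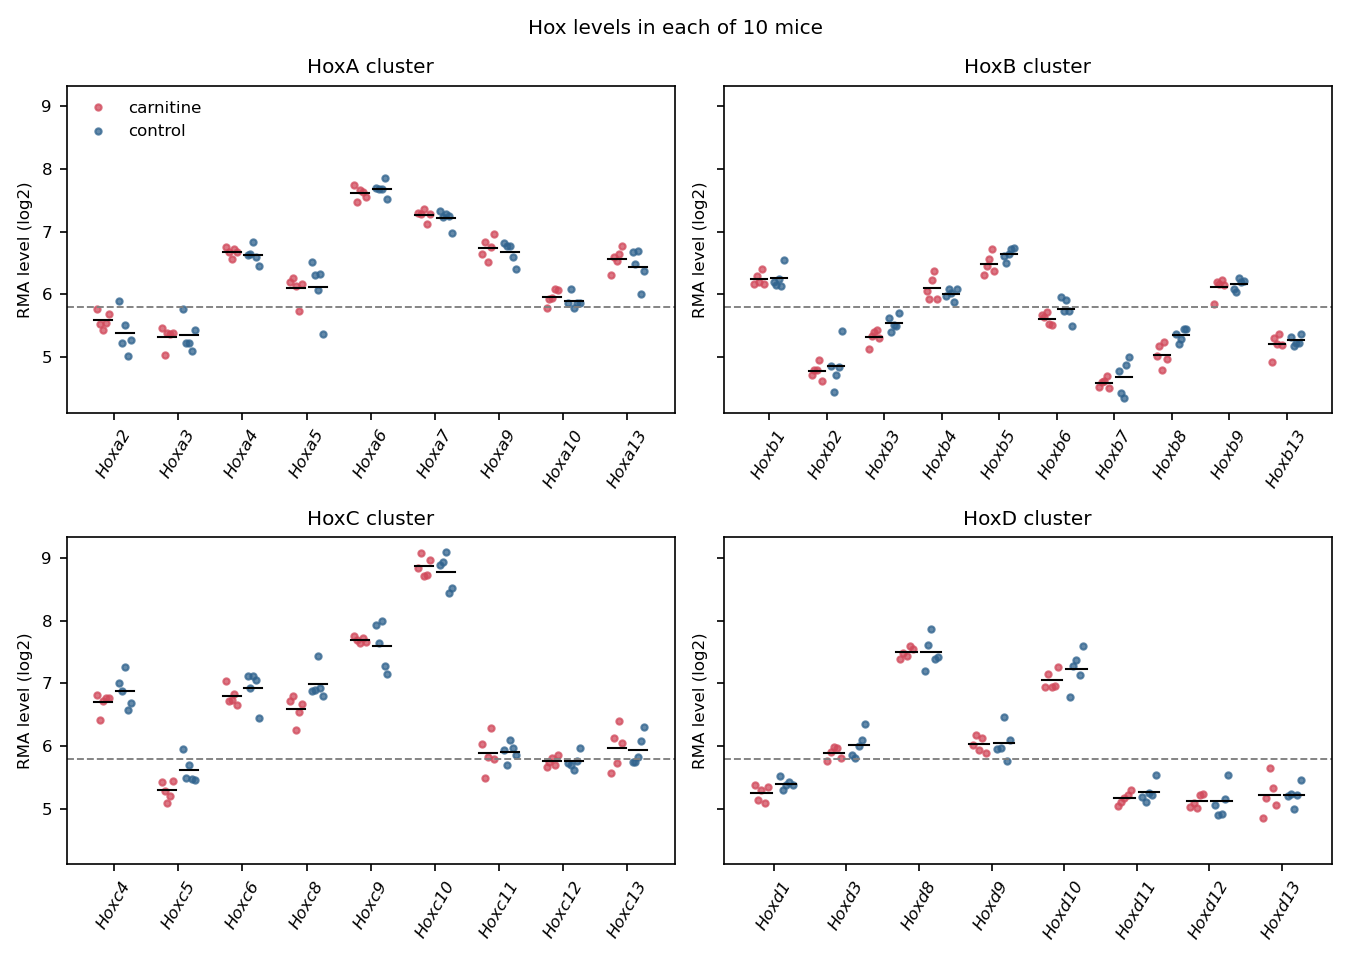
RMA level (log2) of every Hox gene in each of 10 mice, carnitine in red and control in blue, with black bars at group means and a dashed line at the median probe set level of 5.80. The groups lie on top of each other for most genes, and Hoxc10, at 8.44 to 9.09, stands above all other points.

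Hoxa11 and Hoxd4 had no probe set of their own symbol alone. For Hoxa11, another gene of the lower limb segment, 2 probe sets name it together with its antisense gene Hoxa11os. They had means of 6.10 and 5.62, so the gene and its antisense partner cannot be told apart here. A probe set shared by Hoxd4 and Hoxd3 had a mean of 6.52, above the 5.95 of the probe set for Hoxd3 alone. Differences between diets on these 3 probe sets were -0.11, 0.07 and -0.11. Among genes that also have a probe set of their own, one shared by Hoxa7 and Mira had a mean of 6.6. Another, shared by Hoxb4 and Mir10a, had a mean of 3.0, below the median. Gene bodies also overlap in RefSeq, Hoxd10 with Hoxd11, Hoxd3 with Hoxd4, Hoxb3 with Hoxb4, and Hoxa3 with Hoxa4, Hoxa5 and Hoxa6. Signal from such neighbours cannot be told apart where probes lie in the shared stretch.

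Promoters of the Hox genes were looked up in RefSeq (GRCm38.p6), as windows of 300 bases from 250 before to 50 after each start; 20 of the 36 genes were matched, with 22 windows. The Hox windows held a median of 17 CpG dinucleotides, beside 7 over all 32851 windows, and 58.7% G and C, beside 52.7%. Windows of Hox genes above the median level had a median of 17 CpG, and those of genes below it 16.5. Motifs were searched as exact letters on both strands. TATAAA, the TATA box core, was in 3 of 22 Hox windows (13.6%, beside 13.6% of all), TGATNNAT, a pattern bound by HOX and PBX proteins together, in 4 (18.2%, beside 8.85%), and TGACAG, bound by MEIS proteins, in 2 (9.09%, beside 19.2%). A match is letters in a window, not a site in use.

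The 3 windows below show a gene above the median (Hoxd10), one below it in the same cluster (Hoxd13) and the 1 gene in the table among those with a small p between diets (Hoxb8). Capitals mark matches to the 3 motifs, shown in the direction of the gene. Hoxb8 holds 2 reversed TATA cores and 1 reversed HOX-PBX match, Hoxd13 has TATA cores on both strands that overlap, and Hoxd10 has none of the 3 motifs in this window.
Hoxd10 promoter, chr2:74691641-74691940, + strand: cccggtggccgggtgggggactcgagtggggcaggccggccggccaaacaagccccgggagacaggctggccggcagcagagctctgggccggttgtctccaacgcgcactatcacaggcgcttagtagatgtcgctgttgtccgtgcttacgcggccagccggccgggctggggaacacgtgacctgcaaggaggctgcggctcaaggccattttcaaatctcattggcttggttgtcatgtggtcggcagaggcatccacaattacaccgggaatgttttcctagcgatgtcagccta
Hoxd13 promoter, chr2:74667975-74668274, + strand: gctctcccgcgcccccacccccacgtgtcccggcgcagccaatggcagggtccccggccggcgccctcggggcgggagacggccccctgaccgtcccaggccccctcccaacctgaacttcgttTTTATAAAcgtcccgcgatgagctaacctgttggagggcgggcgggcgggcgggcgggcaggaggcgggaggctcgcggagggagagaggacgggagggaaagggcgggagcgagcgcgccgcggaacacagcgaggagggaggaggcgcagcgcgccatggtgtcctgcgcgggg
Hoxb8 promoter, chr11:96281655-96281954, + strand: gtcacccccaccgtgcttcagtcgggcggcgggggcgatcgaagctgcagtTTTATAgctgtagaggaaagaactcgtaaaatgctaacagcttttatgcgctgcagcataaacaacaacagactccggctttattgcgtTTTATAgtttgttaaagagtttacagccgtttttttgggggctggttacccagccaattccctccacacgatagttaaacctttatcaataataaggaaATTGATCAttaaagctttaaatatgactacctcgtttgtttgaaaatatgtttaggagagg

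Between the diets, no Hox gene passed limma's test after Benjamini-Hochberg adjustment over all 22180 genes: 0 of 36 passed, beside 0% of all genes. The smallest adjusted p among the Hox genes was 0.712. At an unadjusted p below 0.05, 4 were lower in carnitine muscle (11.1%, beside 3.83% of all genes), namely Hoxc8, Hoxb8, Hoxc5 and Hoxb3. None was higher, beside 3.14% of all genes; in either direction 6.97% of all genes passed. In 2 of 36 genes, Hoxc8 and Hoxc5, every carnitine mouse was below every control (5.56%, beside 0.609% of all genes); in none was every carnitine mouse above every control, beside 0.505%.

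Hoxc8 had 6.72, 6.79, 6.25, 6.54 and 6.67 in carnitine muscles, against 6.88, 6.89, 7.43, 6.92 and 6.80 in control muscles. The groups did not overlap, but the gap between the highest carnitine mouse and the lowest control was small, and replicate 3 was the extreme of each group. The difference was -0.39 (SE 0.13, 95% interval -0.67 to -0.11, 1.31-fold lower; limma p = 0.0105, adjusted p = 0.712, exact two-sided permutation p = 0.00794, the smallest that 252 assignments of the arrays allow). Without control replicate 3 the difference was -0.28.

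Hoxc5, which lies beyond Hoxc6 from Hoxc8 in the cluster, had 5.43, 5.28, 5.09, 5.20 and 5.44 in carnitine muscles, against 5.95, 5.49, 5.69, 5.47 and 5.46 in control muscles. The groups did not overlap by a narrow margin, since 3 controls were close to the highest carnitine mice. The difference was -0.32 (SE 0.11; limma p = 0.0130, adjusted p = 0.712, exact permutation p = 0.00794). The mean lay under the median probe set level in both groups. After cyclic loess scaling the difference was -0.25 with a limma p of 0.0788.

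Hoxb8 had 5.01, 5.18, 4.79, 5.24 and 4.97 in carnitine muscles, against 5.37, 5.21, 5.29, 5.44 and 5.44 in control muscles. Only carnitine replicate 4 lay above any control. The difference was -0.31 (SE 0.10; limma p = 0.00784, adjusted p = 0.712, exact permutation p = 0.0159), again at a dim signal.

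Hoxb3, which acts in the hindbrain, had 5.13, 5.33, 5.40, 5.43 and 5.31 in carnitine muscles, against 5.62, 5.40, 5.51, 5.49 and 5.70 in control muscles. The groups overlapped between 5.40 and 5.43. The difference was -0.22 (SE 0.09; limma p = 0.0296, adjusted p = 0.712, exact permutation p = 0.0238). Its limma p was 0.0558 without control replicate 5, and also above 0.05 without carnitine replicate 1, carnitine replicate 5 or control replicate 1. After cyclic loess the Hoxb3 difference was -0.15, with a limma p of 0.0677. A second probe set, shared by Hoxb3 and Hoxb2, differed by -0.23 (SE 0.13; limma adjusted p over all probe sets = 0.719), with means of 5.52 in carnitine muscles against 5.75 in control muscles.

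**Figure D3:**
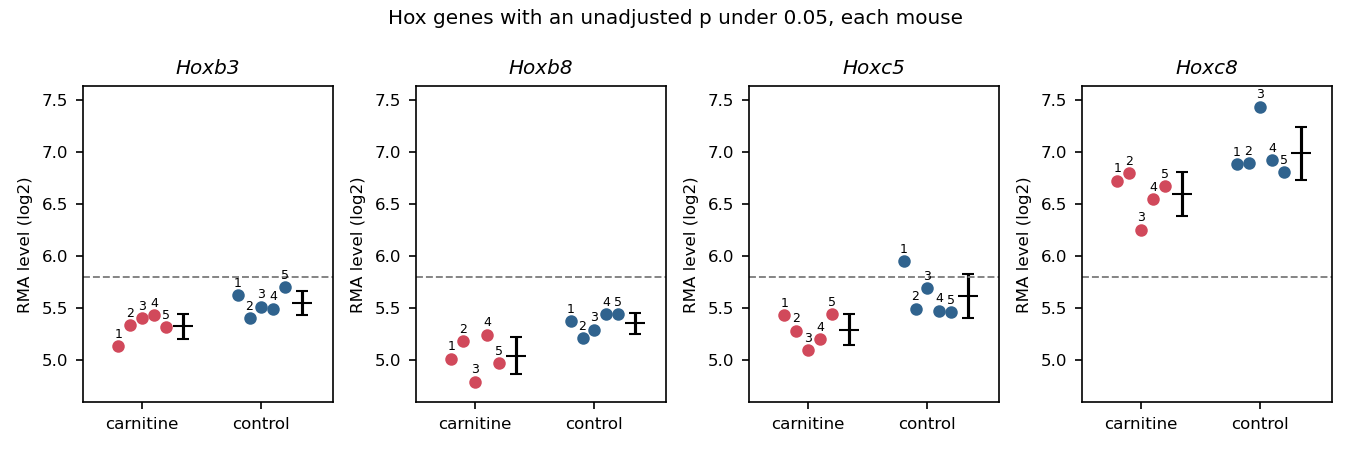
RMA level (log2) of Hoxb3, Hoxb8, Hoxc5 and Hoxc8 in each mouse, carnitine left and control right, with replicate numbers beside the points, black marks for the mean ± SD (n = 5 each) and a dashed line at the median probe set level. The groups are apart for Hoxc5 and Hoxc8 and overlap for Hoxb3 and Hoxb8; all mice are above the dashed line for Hoxc8, and for the other genes only control replicate 1 in Hoxc5 is.

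Hoxb8 and Hoxc8, both among these genes, are paralogs of each other. The other paralogs of these genes had intervals that include zero. Hoxd8, the third gene numbered 8, differed by -0.004 (SE 0.12, 95% interval -0.25 to 0.24). Of the other genes numbered 5, Hoxa5 differed by -0.02 (SE 0.18) and Hoxb5 by -0.16 (SE 0.10), and of the other genes numbered 3, Hoxa3 by -0.02 (SE 0.13) and Hoxd3 by -0.14 (SE 0.11). Whether one paralog's difference departs from another's was not tested.

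The intervals of the genes in the upper quartile of probe sets include zero. Hoxc10 differed by 0.09 (SE 0.13, 95% interval -0.18 to 0.36), Hoxc9 by 0.09 (SE 0.15), Hoxa6 by -0.07 (SE 0.09), Hoxa7 by 0.05 (SE 0.09) and Hoxd10 by -0.18 (SE 0.13). The largest positive difference was 0.21 in the dim gene Hoxa2 (SE 0.14). Hoxc12 and Hoxd12 had equal means in the 2 groups.

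Across the 36 genes, 24 differences were negative (66.7%, beside 52.0% of all genes), 10 positive and 2 zero, with a median of -0.02 beside -0.01 over all genes. That split is tied to the scaling: it was 16 negative and 20 positive after centring each array on its median, and 18 and 18 after cyclic loess. The median difference over all genes moved too, from -0.008 to 0.042 after median centring and 0.002 after cyclic loess. The Hox median minus the all-gene median was -0.015 both in the deposited values and after median centring, and -7.7e-05 after cyclic loess. By cluster, 9 of 10 HoxB and 7 of 8 HoxD genes were negative in the deposited values, against 5 of 9 HoxC and 3 of 9 HoxA genes. After median centring these counts were 7 of 10 HoxB, 4 of 8 HoxD, 4 of 9 HoxC and 1 of 9 HoxA genes, and after cyclic loess 7, 5, 5 and 1. The 95% interval of a difference had a median half-width of 0.25, beside 0.24 over all genes. It stayed within 0.5 log2 units of zero on both sides for 32 of 36 Hox genes, beside 19460 of all 22180 genes.

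**Figure D4:**
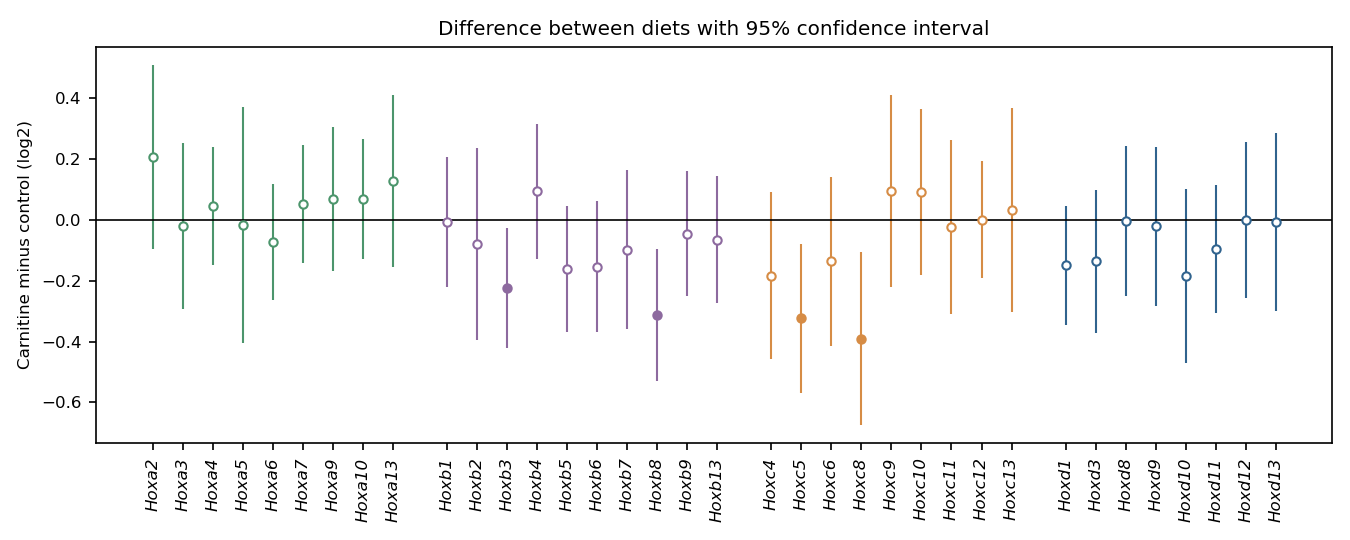
Carnitine minus control (log2) with its 95% confidence interval from limma for each Hox gene, ordered by cluster and paralog number; filled points have an unadjusted p below 0.05. The filled points are Hoxb3, Hoxb8, Hoxc5 and Hoxc8, all below zero, and the interval of every other gene crosses zero.

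Noncoding genes inside the clusters were read from a list of 20, of which 8 had a probe set of their own symbol. None passed the adjusted test, 2 of 8 were lower at an unadjusted p below 0.05 (25%, beside 3.83% of all genes), and the median difference was -0.03. Mir615, the gene of a microRNA that lies within Hoxc5, had 5.19, 5.57, 5.27, 5.65 and 5.65 in carnitine muscles, against 5.56, 5.65, 5.84, 5.72 and 6.14 in control muscles. Its difference was -0.32 (SE 0.13; limma adjusted p = 0.712) beside -0.32 for Hoxc5, and the host transcript and the microRNA precursor cannot be told apart. Mir196a-1, between Hoxb13 and Hoxb9, differed by -0.35 (SE 0.16; limma adjusted p = 0.712), with a control SD of 0.38. Mir196a-2, between Hoxc10 and Hoxc9, encodes the same mature microRNA and differed by 0.30 (SE 0.17; limma adjusted p = 0.721). The microRNA miR-196a is known to direct cleavage of mouse Hoxb8 mRNA.

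These arrays read precursors and not mature strands, so the sequences only identify the genes; the seed, bases 2 to 8, is in capitals. The mature miR-196a strand is the same from both loci, and the miR-615 strands share no seed with it.
mmu-miR-196a-5p (Mir196a-1, chr11:96265187-96265208, and Mir196a-2, chr15:102973365-102973386, + strands): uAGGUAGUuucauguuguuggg
mmu-miR-615-5p (Mir615, chr15:103014926-103014947, + strand): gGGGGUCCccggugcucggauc
mmu-miR-615-3p (Mir615, chr15:103014969-103014990, + strand): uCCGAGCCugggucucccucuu

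Hotair, the noncoding RNA of the HoxC cluster between Hoxc11 and Hoxc12, had 6.00, 6.52, 6.35, 5.94 and 6.23 in carnitine muscles, against 6.18, 6.06, 6.20, 6.02 and 6.28 in control muscles (difference 0.06, SE 0.12). The carnitine values enclosed the control values. Hoxd3os1, antisense to Hoxd3, differed by -0.04, Hoxaas3 by -0.02 and Gm53 by -0.07.

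The cofactors that bind DNA with HOX proteins were measured by 8 of 9 listed genes. Of the 8, 6 were above the median probe set level (75%, beside 58.3% of all genes). None had an unadjusted p below 0.05, beside 6.97% of all genes, and the median difference was -0.01. Pknox2 was at 8.23 ± 0.05 in carnitine muscles and 8.28 ± 0.10 in control muscles, while Meis1 averaged 6.33 ± 0.15 in carnitine muscles and 6.31 ± 0.12 in control muscles. Meis2 averaged 5.79 ± 0.16 in carnitine muscles and 5.92 ± 0.20 in control muscles. Pknox1 differed by 0.20 (SE 0.10; limma adjusted p = 0.715). Pbx3 lay just under the median at 5.78.

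Of 13 measured limb factors, 7 were above the median (53.8%, beside 58.3% of all genes). Tbx4, a hindlimb factor of the embryo, had 6.58, 6.58, 6.67, 6.73 and 6.61 in carnitine muscles, against 6.76, 6.74, 6.70, 6.62 and 6.61 in control muscles. Tbx5, its forelimb counterpart, had a mean of 5.22 and lay below the median in all 10 mice. Pitx1, which drives hindlimb identity upstream of Tbx4, was also below the median, at 5.44 ± 0.10 in carnitine muscles and 5.37 ± 0.27 in control muscles. Prrx1, a factor of limb connective tissue, averaged 9.17 in both groups. Tbx3, a T-box factor of the limb margins, had 7.93, 7.94, 8.06, 7.75 and 7.75 in carnitine muscles, against 7.54, 7.63, 7.26, 7.89 and 7.47 in control muscles. With control replicate 4 above 2 of the carnitine mice, it differed by 0.33 (SE 0.11, limma adjusted p = 0.712). Tbx3 was the 1 gene of the 13 with an unadjusted p below 0.05, beside 6.97% of all genes.

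Of the genes that maintain Hox states, 17 of 19 Polycomb genes were above the median probe set level. So were 13 of 13 Trithorax-group and demethylase genes, beside 58.3% of all genes. None of either list had an unadjusted p below 0.05, beside 6.97% of all genes. The median differences were 0.06 and 0.03. Ezh1, a methyltransferase of Polycomb complex PRC2, differed by -0.01 (SE 0.07), and Suz12, another subunit of it, by 0.23 (SE 0.14; limma adjusted p = 0.721). Kmt2a, a Trithorax-group methyltransferase that acts on Hox genes, differed by -0.11 (SE 0.12). Of 12 axial patterning genes, which include Cdx and retinoic acid receptor genes, none had an unadjusted p below 0.05, beside the same 6.97%. Cdx1 differed by -0.19 (SE 0.10, limma adjusted p = 0.719).

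In bulk muscle, fewer cells of a type and less RNA per cell cannot be told apart. Of 9 tendon markers 6 had a positive difference, and of 11 fibroblast markers 10, beside 47.5% of all genes. At an unadjusted p below 0.05, 3 tendon markers and 0 fibroblast markers were higher, beside 3.14% of all genes, and none of either list passed the adjusted test. The 3 were the cartilage and tendon matrix genes Chad (0.48, SE 0.20), Thbs4 (0.44, SE 0.18) and Fmod (0.38, SE 0.17), each with a limma adjusted p of 0.712 and overlapping groups. The mean tendon marker level ran from 6.47 to 7.08 in carnitine muscles and from 6.39 to 6.81 in control muscles, and the mean fibroblast marker level from 8.02 to 8.61 in carnitine muscles and from 7.73 to 8.46 in control muscles. Pdgfra, the defining receptor of fibroblasts, differed by 0.15 (SE 0.17), the tendon transcription factor Scx by -0.07 (SE 0.10), the muscle stem cell factor Pax7 by -0.09 (SE 0.09) and the endothelial gene Pecam1 by -0.004 (SE 0.13). Mean levels of stem cell markers (6.73 to 6.90 in carnitine, 6.75 to 6.83 in control) and of immune markers (5.52 to 5.67 in carnitine, 5.54 to 5.91 in control) overlapped between the diets. Of 10 stem cell markers 6 had a positive difference, among them the myogenic factor Myf5 (0.27, SE 0.12). Differences were negative in 6 of 8 immune markers, among them the B cell gene Cd79a (-0.23, SE 0.10), beside 52.0% of all genes. They were negative in 4 of 6 adipocyte markers, among them the adipocyte hormone Retn (-0.38, SE 0.15). Myf5, Cd79a and Retn each had a limma adjusted p of 0.712. Muscle fibre markers had a positive difference in 9 of 12 and a negative one in 3. At an unadjusted p below 0.05, 1 was lower (beside 3.83% of all genes) and 1 higher (beside 3.14%). The higher one was Mylpf (0.17, SE 0.07, limma adjusted p = 0.712). The lower one, the slow myosin Myh7, had 9.28, 7.93, 10.73, 10.94 and 6.36 in carnitine muscles, against 11.29, 10.20, 10.75, 10.88 and 10.30 in control muscles. It was below every control in 3 carnitine mice and within their range in the other two, a difference of -1.64 (SE 0.67; limma adjusted p = 0.712). Chad, Thbs4, Fmod, Myf5, Cd79a, Retn, Mylpf and Myh7 are given because of values already seen. The part of fibre type and of these cells in the Hox levels was not tested.

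Control replicate 5 was the highest or tied highest array for 12 of the 36 genes and the lowest for 7. Control replicate 3 was the highest or tied highest for 9. Carnitine replicate 1 was the lowest for 9 and the highest for none. Other genes were not counted in this way, and control replicate 5 also had the highest array median, 5.96. Over the 22 genes above the median, 231 pairs were compared across the 10 mice. None of the pairs passed a permutation test adjusted over the 231 (100000 permutations, smallest adjusted p = 0.224), and 28 had an unadjusted p below 0.05. These were 6 of 54 pairs within a cluster and 22 of 177 pairs across clusters, the latter with 2 of 16 pairs of the same paralog number. The 28 are no result about Hox genes, since pairs of other genes were not compared and all pairs share the same 10 arrays. The smallest unadjusted p was across clusters, for Hoxa5 and Hoxb1 (r = -0.90, permutation p = 0.00329). Hoxc9 and Hoxc10, neighbours in the cluster, had a Pearson r of 0.81 (permutation p = 0.00587) and a Spearman rho of 0.66 (permutation p = 0.0432), and r was 0.37 without the 2 mice farthest from the Hoxc9 median. Without control replicate 5 it was 0.75. Hoxa6 and Hoxc6, paralogs on different chromosomes, had r = 0.78 (permutation p = 0.0076) and rho = 0.85 (permutation p = 0.00298), and r was 0.90 without the 2 mice farthest from the Hoxa6 median. After centring each diet on its mean, r was 0.76 for Hoxa6 and Hoxc6 and 0.80 for Hoxc9 and Hoxc10. Within the carnitine mice alone r was 0.81 for Hoxa6 and Hoxc6 and -0.02 for Hoxc9 and Hoxc10. Within the control mice alone it was 0.77 and 0.92. The pairs named were chosen after their values had been seen.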

How the data were processed

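Per the submitters' processing notes, the authors summarised the deposited arrays by RMA using Affymetrix Expression Console; software versions and the genome build are not given in the sources here. The deposited values are log2 levels with 2 decimals for 34390 probe sets on 10 arrays. RMA scales arrays towards a shared distribution, so a difference in total RNA cannot be read from these values; the deposited arrays still differ in median (5.72 to 5.96) and in spread. Gene names come from the array annotation, in which 23521 have 1 symbol, 1814 have several and 9055 are unnamed here. Per gene, the probe set with the highest mean was kept. The 2 diets were compared with limma 3.58.1 under R 4.3.3 (lmFit, eBayes with trend, no filter on dim genes), two-sided, with Benjamini-Hochberg adjustment over 22180 genes and a threshold of 0.05. The fit was tested on simulated data. The 4 Hox genes with the smallest limma p were also tested by exact permutation, which is no separate support for genes chosen in this way. Where the groups do not overlap, the exact permutation p is always the smallest possible. Pairs of genes were tested by permutation in Python 3.11.15 with numpy 2.4.6. Groups came from the labels, which do not say whether mice shared a cage, so p-values measure the spread between these samples. The number of arrays limits the precision.

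The members and lists were chosen with earlier results of these data known. The text names all 36 Hox genes, a fixed set of cofactor and limb genes with Hotair, the defining cell type markers, and genes drawn from the up to 4 of each other list with the smallest p and the up to 4 with the highest level.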

Additional observations from a re-analysis of the deposited data

Results flagged for a closer look

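Each Hox gene was screened in each group for a mouse whose gap to its nearest neighbour took up most of the group's range (Dixon's test for 5 values, critical ratio 0.71). Of 72 groups 8 were flagged, where chance flags about 1 in 20. Other genes were not screened and the 72 groups share the same 10 arrays, so the count is no result about Hox genes. In carnitine muscles the low values were Hoxa3 in replicate 2 (5.03, others 5.37 to 5.46), Hoxa5 in replicate 4 (5.74, others 6.14 to 6.26), Hoxb9 in replicate 1 (5.84, others 6.15 to 6.23) and Hoxc4 in replicate 2 (6.41, others 6.72 to 6.82). In control muscles Hoxa7 was low in replicate 5 (6.98, others 7.24 to 7.33), and Hoxb1 was high there (6.55, others 6.14 to 6.25). Hoxa10 was high in control replicate 2 (6.08, others 5.79 to 5.86), and Hoxc8 was high in control replicate 3 (7.43, others 6.80 to 6.92). Without that last mouse the Hoxc8 difference was -0.28 in place of -0.39.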

How the results depend on the processing

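The alternatives were a replicate block, median centring, cyclic loess, other variance models, array weights, a filter on dim genes, averaging of probe sets per gene, all probe sets, and the omission of each array. No Hox gene passed the adjusted threshold under any of the 19. Over all genes 1 passed without control replicate 2, and the range over omissions was 0 to 1. The 4 genes lower at an unadjusted p below 0.05 became 2 after cyclic loess (5.56%, beside 2.92% of all genes). With the dim-gene filter 1 of 22 was lower (4.55%, beside 1.90% of the genes kept). The count rose to 6 with array weights (16.7%, beside 3.31% of all genes), which adds Hoxb6 and Hoxc6. Over omissions it ranged from 3 to 5 (8.33% to 13.9%), beside 2.92% to 5.77% of all genes. Higher genes ranged from 0 to 1, the 1 being Hoxa2 without control replicate 1, where 760 of all 22180 genes were higher. The 2 genes without overlap of the groups became 1 after cyclic loess (beside 0.491% of all genes) and 1 with the filter (beside 0.271% of the genes kept). Over omissions they ranged from 2 to 4, beside 0.870% to 1.81% of all genes. The 4 were found without control replicate 2, where the share of all genes was also highest, at 1.81%. Hoxc8 and Hoxb8 kept an unadjusted p below 0.05 in every alternative that tested them; the dim-gene filter removes Hoxb8. Of 34 nonzero differences, 19 kept their sign throughout and 15 did not. The count of 22 above the median was 15 against the median gene and 17 on all 10 arrays, and 6 genes passed the upper quartile. Leaving out the 2 farthest mice was run for r alone, not for the count of pairs. No pair of genes passed after group-centring (0) or, an alternative chosen after seeing the data, without control replicate 5 (0). With the replicate block the lower count was 3 (8.33%, beside 4.28% of all genes), without Hoxb3 (limma p there 0.0512). The smallest limma adjusted p among the Hox genes ranged from 0.365 to 0.900 over alternatives. Arrays with the same number correlated from -0.13 to 0.24 in their deviations, and none matched its own number best. So few correlations cannot decide whether the numbers pair the mice, and the labels do not state it. Dim signal limits Hoxb3, Hoxb8 and Hoxc5, and the cause of the changes with scaling was not tested.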
